A study of Homo sapiens with 9 samples.

Results

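The genes described here are the lysosomal cathepsins, the lysosome-associated membrane proteins (LAMPs) and the subunits and accessory proteins of the vacuolar proton pump, the V-ATPase. They were taken by name and biotype: 46 of the 58735 genes in the deposited tables were protein coding and carried a symbol of the form CTS plus a letter, LAMP1 to LAMP5, ATP6V or ATP6AP. Levels were measured by RNA sequencing in PaTu 8988t, an established human pancreatic tumour cell line, in a study that asked what collagen aligned by CPXM2 does to these cells. CPXM2 is a secreted protein of the metallocarboxypeptidase family. The first group had met a matrix with wild-type CPXM2 (labelled CPXM2WT OE ECM), the second a matrix with the R213A mutant of CPXM2 (CPXM2R213A OE ECM), and the third a control matrix (Ctrl ECM), with 3 libraries each. All groups shared the same line and the same serum-containing DMEM medium, so every comparison rests on a single cell line, and the cells that laid down the matrices are not named in the labels.

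Cathepsins are the proteases that break down proteins inside lysosomes, and the V-ATPase acidifies the compartment so that they can work. Its V1 sector on the cytosolic side hydrolyses ATP, and its V0 sector in the membrane carries the protons. LAMP1 and LAMP2 are the main glycoproteins of the lysosomal membrane, and many genes of all 3 kinds are known targets of the MiT/TFE transcription factors, which bind a promoter element with the core CACGTG.

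The promoters are shown because that core was common among the genes studied. The RefSeq promoter table (GRCh38.p14, 250 bases before to 50 after each annotated start) matched 30 of the 46 genes, 21 of them among the 31 genes that averaged 1 FPKM or more. FPKM, a count of fragments scaled to gene length and library size, is the unit of all levels below. CACGTG, which reads the same on both strands, occurred for 8 of those 21 genes (38.1%), against 2548 of all 35116 promoters in the table (7.26%). The 2 shares are not counted alike. A gene with several promoters counted once if any held the core, and the 35116 are single promoters of genes at any level. The 8 genes were CTSD, CTSA, CTSF, LAMP1, ATP6V0B, ATP6V0D1, ATP6V0E2 and ATP6V1G1. The longer form GTCACGTG, searched on both strands and always containing a CACGTG match, was in 6 of the 21 and in 2.40% of all promoters. Of the 9 matched genes of lower level, 0 held the core. A match is a description of the letters in this window. The sequences run 5′ to 3′ on the gene's strand, with the matches in capitals: CTSD at chr11:1763878-1764177 (minus strand), CTSA at chr20:45891085-45891384 (plus), LAMP1 at chr13:113296989-113297288 (plus), ATP6V0D1 at chr16:67481108-67481407 (minus) and, as a gene of the set with no match in the window, CTSL at chr9:87725869-87726168 (plus).
CTSD: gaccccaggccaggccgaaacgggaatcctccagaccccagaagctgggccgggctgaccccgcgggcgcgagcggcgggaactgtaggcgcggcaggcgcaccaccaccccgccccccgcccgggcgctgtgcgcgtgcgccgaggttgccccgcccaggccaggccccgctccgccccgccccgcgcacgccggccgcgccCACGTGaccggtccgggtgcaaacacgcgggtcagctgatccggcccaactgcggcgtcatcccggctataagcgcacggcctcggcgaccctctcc
CTSA: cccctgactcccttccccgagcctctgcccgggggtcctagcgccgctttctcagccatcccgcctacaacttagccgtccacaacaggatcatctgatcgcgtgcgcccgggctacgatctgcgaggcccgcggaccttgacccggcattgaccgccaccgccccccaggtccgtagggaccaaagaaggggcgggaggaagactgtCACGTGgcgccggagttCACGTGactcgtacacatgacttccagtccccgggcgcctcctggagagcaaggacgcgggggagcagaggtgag
LAMP1: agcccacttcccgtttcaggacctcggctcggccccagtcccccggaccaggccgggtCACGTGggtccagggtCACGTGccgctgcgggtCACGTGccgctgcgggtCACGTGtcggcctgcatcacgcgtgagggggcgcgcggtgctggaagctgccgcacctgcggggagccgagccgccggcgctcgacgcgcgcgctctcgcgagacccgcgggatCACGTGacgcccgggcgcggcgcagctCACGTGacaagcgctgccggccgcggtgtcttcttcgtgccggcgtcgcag
ATP6V0D1: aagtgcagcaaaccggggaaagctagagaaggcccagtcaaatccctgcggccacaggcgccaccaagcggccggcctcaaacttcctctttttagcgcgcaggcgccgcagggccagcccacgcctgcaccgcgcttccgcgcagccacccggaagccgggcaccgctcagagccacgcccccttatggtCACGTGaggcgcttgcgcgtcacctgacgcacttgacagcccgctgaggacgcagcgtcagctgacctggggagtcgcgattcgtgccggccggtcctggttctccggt
CTSL: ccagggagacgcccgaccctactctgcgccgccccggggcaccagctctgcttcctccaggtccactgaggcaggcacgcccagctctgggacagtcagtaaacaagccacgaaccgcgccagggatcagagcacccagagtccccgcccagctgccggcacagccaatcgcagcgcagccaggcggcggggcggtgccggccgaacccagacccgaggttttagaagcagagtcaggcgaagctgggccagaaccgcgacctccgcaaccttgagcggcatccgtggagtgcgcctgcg
The LAMP1 promoter held 6 copies, beginning 192, 176, 159, 142, 28 and 1 bases before the annotated start, and was the only promoter of the 35116 with as many. CTSD had 1 copy, 47 bases before its start, CTSA had copies 42 and 25 bases before, and ATP6V0D1 had 1 copy 59 bases before.

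Of the 46 genes, 31 reached a mean of 1 FPKM over the 9 libraries and were tested, and 15 did not. The tested genes comprised 1 of 2 aspartic cathepsins, 8 of 11 cysteine cathepsins, 1 of 2 serine cathepsins, 3 of 4 LAMPs, 8 of 13 V1 genes, 8 of 9 V0 genes and 2 of 3 accessory genes. ATP6V1FNB, a neighbour of ATP6V1F, and the read-through gene ATP6V1G2-DDX39B share the naming pattern but are not pump subunits, and neither was tested. In 4 genes no library held a read: CTSG, CTSE, ATP6V1G3 and ATP6V1G2-DDX39B. A count of 0 allows up to 3 reads per library, for counting error only. Together the 46 genes took between 0.296% of the reads (control 2) and 0.406% (wild type 1).

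The libraries held 15951927 to 18312806 reads, recovered from the FPKM values and gene lengths, with 1.81% to 2.38% of them from the mitochondrial genome. The values came in 2 tables. The 4-library table holds wild type 1, R213A 1, R213A 3 and control 1. The 5-library table holds wild type 2, wild type 3, R213A 2, control 2 and control 3. The libraries of the 4-library table stood apart from those of the other for many genes, and within the 5-library table control 2 stood apart from the other 4, so the fit formed differences between matrices within tables. The plot of within-table differences shows those to the control matrix for each gene and table, and the text gives them for some genes. No source used here says what separates the tables. Of the epithelial markers, KRT18 (211 to 647 FPKM), KRT8 (104 to 300 FPKM) and EPCAM (1.84 to 6.57 FPKM) were present, while CDH1, KRT19 and KRT7 stayed at or under 0.468 FPKM in every library. None of 10 fibroblast markers and none of 9 leukocyte markers reached a mean of 1 FPKM. The fibroblast markers summed to 0.794 to 1.43 FPKM with wild-type CPXM2, 0.922 to 1.45 FPKM with R213A and 0.889 to 1.74 FPKM on the control matrix, with FAP at 0 reads throughout. The leukocyte markers summed to 0.0277 to 0.239 FPKM with wild-type CPXM2, 0.171 to 0.309 FPKM with R213A and 0.0214 to 0.198 FPKM with control, with TYROBP at 0 reads.

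**Figure D1:**
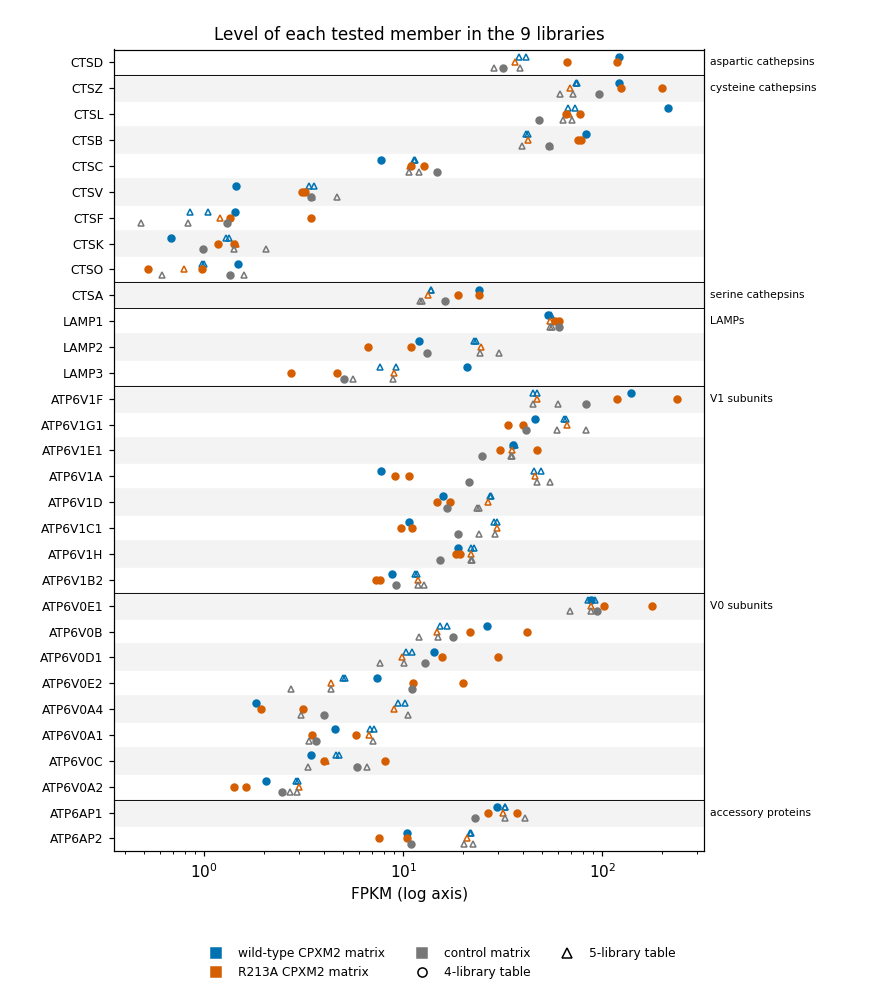
Levels in FPKM (log axis) of the 31 tested genes in each of the 9 libraries, ordered by role and mean level. Filled circles are the 4-library table and open triangles the 5-library table; ATP6V1A is at most 21.4 FPKM in the filled circles and at least 45.6 FPKM in the triangles, while LAMP1 lies between 53.2 and 60.8 FPKM in all 9.

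No gene of the set passed the test on any matrix. In limma on log2(FPKM + 1), with p adjusted by Benjamini and Hochberg over 11193 genes, 0 of 31 members were called with wild-type CPXM2 against control, 0 with R213A against control and 0 with wild type against R213A. The background was 0 called in each comparison (percent called 0, 0 and 0). At an unadjusted p under 0.05 the counts were 0, 0 and 1 of 31, where the shares over all genes were 4.49%, 3.05% and 1.05%. The same fit by limma-voom on the recovered reads also called 0 genes in each comparison, with 2, 0 and 1 members at an unadjusted p under 0.05. The smallest adjusted limma p among the members was 0.757, 0.69 and 0.996 in the 3 comparisons. The 95% interval of a median member's difference, without adjustment, reached 0.50, 0.52 and 0.52 on each side (log2), so smaller shifts were mostly not detectable. These are not the limits of the adjusted test. Larger differences also went uncalled there, such as 0.79 for CTSD (wild type against control) and 1.03 for LAMP3 (wild type against R213A). In these bulk libraries fewer cells of a type and less RNA per cell cannot be told apart. The labels do not say that replicates were separate cultures, so p-values measure only the spread between these libraries.

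The direction of the genes was mixed on every matrix. With wild-type CPXM2 against control, 18 of 31 had a positive fitted difference and 13 a negative one, with a median of 0.10 (log2), beside -0.03 over all genes tested. With R213A against control the split was again 18 and 13, with a median of 0.09 beside -0.02. With wild type against R213A, 14 were positive and 17 negative, with a median of -0.02 beside -0.01. Formed in the 4-library table alone the medians were 0.07, 0.20 and -0.09, and those of the 5-library table were 0.03, 0.0063 and 0.04 (wild type to control, R213A to control, wild type to R213A). The wild-type and R213A comparisons share the control libraries.

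Among the proteases, CTSD, the main aspartic protease of lysosomes, had the smallest p with wild-type CPXM2. Its levels were 121, 38.2 and 41.2 FPKM with wild type (replicates 1 to 3), 118, 36.5 and 66.7 FPKM with R213A and 31.7, 28.7 and 38.8 FPKM on the control matrix. The high values, 121, 118 and 66.7 FPKM, belonged to the 3 CPXM2 libraries of the 4-library table, and the groups overlapped elsewhere. The fitted difference was 0.79 ± 0.36 (SE, log2; limma adjusted p = 0.757) for wild type against control and 0.68 ± 0.37 (limma adjusted p = 0.69) for R213A against control. For wild type the 4-library table gave 1.90, and the 5-library table gave 0.24, or 0.03 without control 2. The R213A differences were 1.46, 0.13 and -0.08 on the same terms. Without control 1 the fitted differences were 0.30 for wild type and 0.02 for R213A. Without wild type 1 that of wild type was 0.46, and without R213A 1 that of R213A was 0.45. CTSE, the other aspartic cathepsin, known from stomach and immune cells, had no read.

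CTSL, an endopeptidase of the papain family, was high in a single library. It stood at 215, 67.5 and 72.9 FPKM with wild-type CPXM2, 65.3, 67.8 and 77.5 FPKM with R213A and 47.9, 70.3 and 63.8 FPKM with control. Apart from wild type 1 all values lay between 47.9 and 77.5 FPKM, and the groups overlapped. The fit gave 0.76 ± 0.37 (limma adjusted p = 0.757) for wild type against control and 0.67 ± 0.39 (limma adjusted p = 0.996) for wild type against R213A. Without wild type 1 these became 0.16 and -0.13, and without control 1 the first was 0.32. CTSV, the closest relative of CTSL, was low in that same library, with 1.44, 3.57 and 3.38 FPKM with wild type, 3.20, 3.19 and 3.09 FPKM with R213A and 3.45, 4.68 and 3.49 FPKM with control. Its fitted differences were -0.40 ± 0.21 against control and -0.30 ± 0.22 against R213A, and -0.15 and 0.04 without wild type 1. The difference to R213A was -0.53 without R213A 2.

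CTSZ, a carboxypeptidase, was the cathepsin with the highest mean level. It was at 122, 74.4 and 73.9 FPKM with wild type, 200, 69.1 and 125 FPKM with R213A and 96.4, 61.0 and 71.0 FPKM with control. All 4 libraries of the 4-library table lay above all 5 of the other, and inside each table control 1 and control 2 were the lowest. The fitted differences were 0.22 ± 0.24 for wild type and 0.40 ± 0.25 for R213A against control. CTSB, which is both an endopeptidase and a dipeptidyl carboxypeptidase, had 82.7, 42.1 and 41.1 FPKM with wild type, 78.3, 42.1 and 75.6 FPKM with R213A and 54.0, 54.7 and 39.6 FPKM with control. Its differences, 0.10 ± 0.22 and 0.13 ± 0.23, were smaller than their errors. CTSC, the dipeptidyl peptidase that activates serine proteases of immune cells, stayed between 7.71 and 14.8 FPKM in the 9 libraries.

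The other cysteine cathepsins were low. CTSF had the smallest p with R213A: it was at 1.43, 0.847 and 1.04 FPKM with wild type, 3.46, 1.21 and 1.35 FPKM with R213A and 1.31, 0.484 and 0.829 FPKM with control. Each R213A library lay above the controls of its own table, though how many of all genes did so was not counted. The fitted difference was 0.48 ± 0.24 (limma adjusted p = 0.69), or 0.25 without R213A 1. CTSK, known as the collagen-cleaving protease of osteoclasts, had 0.685, 1.33 and 1.29 FPKM with wild type, 1.41, 1.46 and 1.18 FPKM with R213A and 0.989, 1.42 and 2.04 FPKM with control. CTSO ranged from 0.524 to 1.59 FPKM. Wild type against R213A gave -0.28 ± 0.18 for CTSK and 0.34 ± 0.22 for CTSO (limma adjusted p = 0.996 each). The CTSK difference was -0.44 without R213A 2, and that of CTSO 0.23 without R213A 1. At levels this low the log2(FPKM + 1) scale understates a fold. CTSS and CTSH, cathepsins typical of immune cells and of lung, and CTSW, typical of lymphocytes, did not exceed 0.225, 0.176 and 0.292 FPKM.

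CTSA, the serine carboxypeptidase that protects beta-galactosidase and neuraminidase in the lysosome, had 24.1, 13.8 and 13.8 FPKM with wild type, 24.1, 13.3 and 18.9 FPKM with R213A and 16.1, 12.2 and 12.4 FPKM with control. In both tables each library of either CPXM2 matrix lay above the controls of that table, an order not counted over all genes. The fitted differences were 0.28 ± 0.17 (limma adjusted p = 0.757) and 0.21 ± 0.18 (limma adjusted p = 0.693). CTSA overlaps PLTP on the opposite strand, and no source used here gives the strand setting of the counting, so its reads may include some from that gene. Summed over the 11 cysteine cathepsins, wild type 1, R213A 1 and R213A 3 reached 432, 365 and 296 FPKM, and the other 6 libraries 194 to 220 FPKM.

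LAMP1 had the lowest ratio of highest to lowest library of the 31 genes in both the 4-library (1.14) and the 5-library table (1.03). It was at 53.2, 54.0 and 55.4 FPKM with wild type, 60.8, 54.9 and 57.9 FPKM with R213A and 60.4, 55.8 and 54.9 FPKM with control, with fitted differences of -0.07 ± 0.17 for wild type and -0.0018 ± 0.18 for R213A against control. The 95% intervals, -0.45 to 0.31 and -0.40 to 0.39, include no 2-fold difference in either direction. LAMP2, whose A isoform takes proteins into the lysosome in chaperone-mediated autophagy, was at 12.1, 23.1 and 22.8 FPKM with wild type, 6.68, 24.5 and 10.9 FPKM with R213A and 13.2, 30.4 and 24.3 FPKM with control. All libraries of the 4-library table lay below all of the other. R213A against control gave -0.39 ± 0.23 (limma adjusted p = 0.69), and 0.01 in the 5-library table without control 2. It was -0.20 without R213A 1 and -0.61 without R213A 2.

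LAMP3, an inducible LAMP of dendritic cells and several tumours, was the 1 member with an unadjusted p under 0.05. Its levels were 21.0, 7.64 and 9.23 FPKM with wild-type CPXM2, 2.72, 9.03 and 4.67 FPKM with R213A and 5.03, 5.62 and 8.88 FPKM with control. Wild type 1 was far above the other 8 libraries, which spanned 2.72 to 9.23 FPKM. Wild type against R213A gave 1.03 ± 0.44 (limma unadjusted p = 0.0434, adjusted p = 0.996), made of 2.26 in the 4-library table with -0.09 in the 5-library one. Without wild type 1 the fitted difference was 0.14, and without R213A 2 it was 1.71. Against control the difference was 0.77 ± 0.43 (limma adjusted p = 0.757), or 0.10 without wild type 1. LAMP5, a neuronal LAMP, had 1 read in 1 library.

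**Figure D2:**
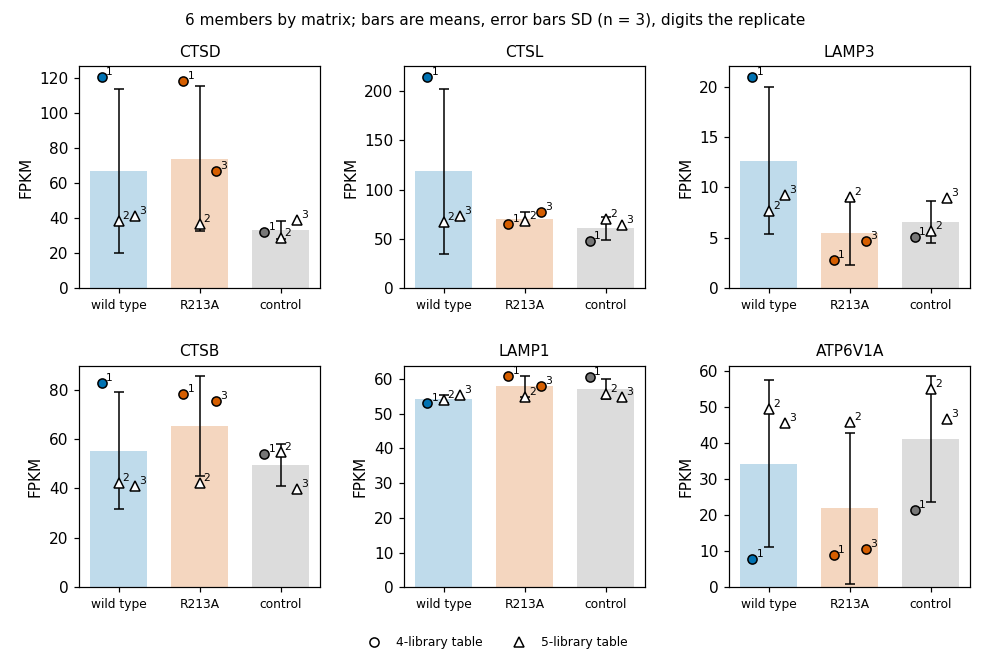
FPKM of 6 members by matrix. A larger share of the R213A points came from the 4-library table, so bar heights mix matrix with table. For ATP6V1A the means were 34.3 FPKM (wild type) and 21.9 FPKM (R213A), while the fitted difference was -0.0059 (log2). Bars are means and error bars SD (n = 3), points are libraries with the replicate number, circles from the 4-library table and triangles from the 5-library table; CTSL at 215 and LAMP3 at 21.0 FPKM are both wild type 1, LAMP1 is level, and the low circles of ATP6V1A (7.77 to 21.4 FPKM) contrast with its triangles (45.6 to 54.9 FPKM).

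ATP6V1A, the catalytic A subunit that binds and splits ATP, had the lowest fitted difference of the V1 genes with both CPXM2 matrices. It was at 7.77, 49.4 and 45.6 FPKM with wild type, 9.05, 45.9 and 10.7 FPKM with R213A and 21.4, 54.9 and 46.7 FPKM with control. The 3 CPXM2 libraries of the 4-library table were the lowest of all, with control 1 next and the 5-library table well above. The fitted differences were -0.51 ± 0.26 (limma adjusted p = 0.757) for wild type and -0.51 ± 0.27 (limma adjusted p = 0.69) for R213A against control. In the 4-library table they were -1.35 and -1.05, and in the other -0.09 and -0.14. Without control 1 they were -0.15 and -0.02, and without wild type 1 the first was -0.24.

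ATP6V1F, part of the central rotor, showed the reverse order of tables. Its levels were 140, 44.9 and 47.2 FPKM with wild type, 238, 47.1 and 118 FPKM with R213A and 83.2, 59.7 and 44.8 FPKM with control. The 4 libraries of the 4-library table held the 4 highest values, and inside that table control 1 was lowest. The fitted differences were 0.14 ± 0.32 and 0.40 ± 0.34 against control. ATP6V1G1 and ATP6V1E1, subunits of the peripheral stalks, were at 33.7 to 82.5 and 24.8 to 46.7 FPKM. ATP6V1G1 differed by -0.02 ± 0.20 and -0.15 ± 0.21 against control, and ATP6V1E1 by 0.19 ± 0.22 and 0.28 ± 0.22. The remaining V1 genes were ATP6V1D of the rotor (14.7 to 27.7 FPKM), ATP6V1C1 (9.80 to 29.7 FPKM) and ATP6V1H (15.3 to 22.8 FPKM), which take part in joining V1 to V0, and ATP6V1B2, the partner of the A subunit in the head (7.26 to 12.8 FPKM). Of the 8 V1 genes, 4 had positive and 4 negative differences with each CPXM2 matrix against control.

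ATP6V0E1, a small membrane subunit, had the highest level of the V0 genes. It was at 87.8, 84.9 and 92.1 FPKM with wild type, 178, 87.8 and 102 FPKM with R213A and 93.7, 69.0 and 87.9 FPKM with control. R213A 1 was far above the other 8 libraries, which spanned 69.0 to 102 FPKM, and the fit gave 0.09 ± 0.26 and 0.39 ± 0.27 against control. ATP6V0B, the c'' subunit of the proton-carrying ring, had 26.4, 15.3 and 16.6 FPKM with wild type, 41.6, 14.8 and 21.6 FPKM with R213A and 17.7, 12.0 and 15.0 FPKM with control, with differences of 0.34 ± 0.25 and 0.43 ± 0.26. ATP6V0D1, which couples the ring to the rotor, had 14.3, 10.3 and 11.1 FPKM with wild type, 29.9, 9.83 and 15.7 FPKM with R213A and 12.8, 7.62 and 10.1 FPKM with control. R213A 1 was again the highest library for both genes. For ATP6V0D1, R213A against control gave 0.48 ± 0.27 (limma adjusted p = 0.69), with 0.72 in the 4-library table, 0.15 in the other and -0.03 there without control 2. It was 0.21 without R213A 1 and 0.76 without R213A 2. For wild type against R213A, 0 of the 8 V0 genes had the same direction in both tables, where 45.6% of all genes did. The 5-library table has 1 R213A library, and the V0 median there was 0.10, against -0.43 in the 4-library table.

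ATP6V0C, the main c subunit of the ring, was listed at only 3.33 to 8.07 FPKM, below its partners ATP6V0B and ATP6V0D1 in every library. It overlaps other annotated genes on the same strand, and no source used here says how shared reads were assigned, so its level is uncertain. ATP6V0E2 overlaps the antisense gene ATP6V0E2-AS1, and ATP6V1D overlaps EIF2S1 and MPP5 on the opposite strand. CTSD and CTSB each enclose a sense intronic gene with at most 16 and 10 reads. The accessory proteins, which help assemble the pump, were at 23.0 to 41.0 FPKM for ATP6AP1 and 7.59 to 22.5 FPKM for ATP6AP2, with fitted differences of 0.0094 ± 0.22 and -0.0034 ± 0.17 with wild type and 0.10 ± 0.22 and -0.16 ± 0.18 with R213A against control. ATP6AP1L, a gene named for its likeness to ATP6AP1, was at 0.122 to 1.14 FPKM and below the mean for testing, as was ATP6V1FNB at 0.0312 to 0.342 FPKM.

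For most pump subunits with several genes, 1 gene supplied nearly all transcripts in every library, judged by FPKM. ATP6V0D1 made up 99.2% to 100% of the d subunit, ATP6V1B2 99.8% to 100% of B, ATP6V1G1 99.6% to 100% of G, ATP6V1C1 96.8% to 99.2% of C, ATP6V1E1 95.7% to 98.9% of E and ATP6V0E1 89.5% to 96.2% of e. Their partners are known from specialised tissues: ATP6V0D2 from osteoclasts, ATP6V1B1 from kidney and inner ear and ATP6V1G2 from neurons. ATP6V0D2 had 7 reads, all in 1 library, ATP6V1B1 had 1 read, and ATP6V1G2 had at most 10. ATP6V1E2 was at 0.369 to 1.11 FPKM and ATP6V1C2 at 0.127 to 0.385 FPKM. ATP6V0E2, the second e gene, was at 2.72 to 19.9 FPKM, highest in R213A 1. The a subunit was the exception, shared by 3 genes. ATP6V0A1 supplied 34.1% to 56.2% of it, ATP6V0A2 13.6% to 29.6% and ATP6V0A4, known from the acid-secreting cells of the kidney, 21.8% to 51.6%. ATP6V0A1 was at 3.37 to 7.13 FPKM and ATP6V0A2 at 1.41 to 3.01 FPKM. ATP6V0A4 had 1.83, 9.41 and 10.2 FPKM with wild type, 3.13, 9.04 and 1.92 FPKM with R213A and 4.02, 3.06 and 10.6 FPKM with control. Control 2 was the one library of its table with a low value, and the fitted differences were 0.16 ± 0.40 and 0.11 ± 0.42.

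How far the genes differed between matrices depended on the table. Within the 4-library table, 3 of 31 members were at least 2-fold higher with wild type than with control (CTSL 2.14, CTSD 1.90 and LAMP3 1.87, log2), where 7.79% of all genes were, and 1 was at least 2-fold lower (ATP6V1A, -1.35), where 8.84% were. With R213A 2 were higher (CTSD 1.46 and ATP6V1F 1.00; 5.22% of all genes) and 1 lower (ATP6V1A, -1.05; 3.18%). With wild type against R213A 2 were higher (LAMP3 2.26 and CTSL 1.58; 2.44%) and 0 lower (4.07%). Of the 31 members, 0 in the 5-library table were 2-fold apart in any of the 3 comparisons, where 0.357%, 0.527% and 0.277% of all genes were. The 4-library differences rest on 1 wild-type, 2 R213A and 1 control library, and these counts carry no test. With the same sign in both tables were 18 of 31 members for wild type against control (51.4% of all genes), 21 for R213A against control (48.7%) and 9 for wild type against R213A (45.6%).

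**Figure D3:**
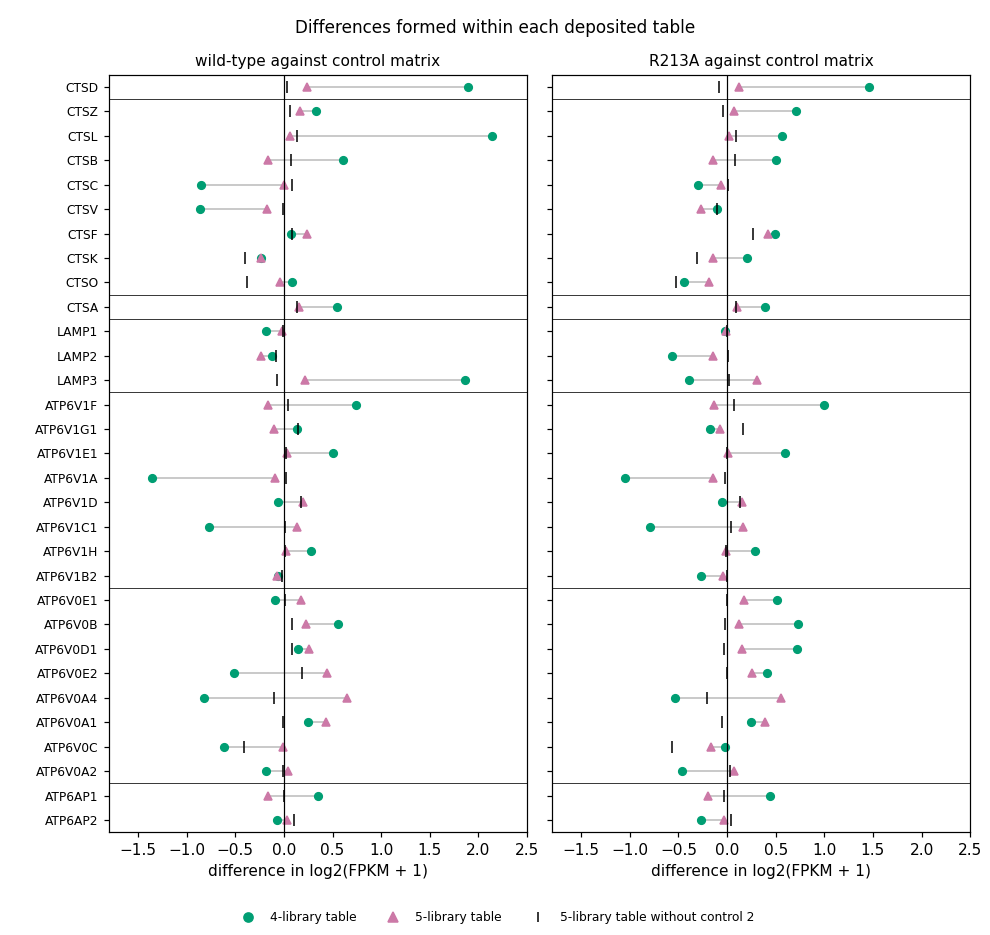
Difference in log2(FPKM + 1) between each CPXM2 matrix and the control matrix, formed inside each deposited table, for the 31 tested genes. Circles (4-library table) reach 2.14 for CTSL and -1.35 for ATP6V1A with wild type, while triangles (5-library table) and ticks (the same without control 2) stay within 1 of 0 for all genes.

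Levels of the genes also differed between the tables. In 9 of the 31 genes (29.0%) all 4 libraries of the 4-library table lay below all 5 of the other, where 30.3% of all genes did, and in 7 (22.6%) they lay above, where 23.7% did. The 9 lower genes were LAMP2, ATP6AP2, ATP6V0A2 and the V1 genes ATP6V1A, ATP6V1B2, ATP6V1C1, ATP6V1D, ATP6V1G1 and ATP6V1H. The 7 higher genes were CTSA, CTSF, CTSZ, ATP6V0B, ATP6V0D1, ATP6V0E2 and ATP6V1F. Inside the 5-library table without control 2, the highest library exceeded the lowest by at most 1.2-fold in 26 of 31 genes and at most 2.00-fold in any (CTSO), although those 4 libraries came from all 3 matrices. Inside the 4-library table the median gene had a ratio of 2.03 between its highest and lowest library, 16 genes had at least 2 and LAMP3 had 7.71. Counted by pairs of libraries, 0 members were 2-fold apart among the 4 close libraries, 1 between control 2 and each of them, 1 to 6 inside the 4-library table and 2 to 14 between tables.

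Ratios inside a library do not depend on how the library was scaled. The pairs were picked for this work, and the share among other pairs of genes was not computed. Of 11 ratios between members, 4 did not overlap between the tables and 7 did. All of the 4 except LAMP1 over LAMP2 involved ATP6V1A. Since ATP6V1F lay above and ATP6V1A below in the 4-library table, their ratio could not overlap. ATP6V1F exceeded ATP6V1A 18.0-fold in wild type 1, 26.3-fold in R213A 1, 11.1-fold in R213A 3 and 3.88-fold in control 1, but stood at 0.908 to 1.09 times its level in the 5-library table. ATP6V1A and ATP6V1B2, which pair in equal numbers in the pump, had a ratio of 0.887, 1.18, 1.47 and 2.34 in those 4 libraries and 3.87 to 4.31 in the others. LAMP1 exceeded LAMP2 4.40- to 9.09-fold in the 4-library table, against 1.83- to 2.43-fold in the 5-library table. In both V1 ratios control 1 was the library of its table nearest to the 5-library table. CTSL over CTSB overlapped between the tables: it was 2.60 in wild type 1 and 0.835 to 1.77 in the other 8 libraries. CTSD over CTSB (0.588 to 1.51 in the 4-library table, 0.525 to 1.00 in the other) and ATP6V1B2 over ATP6V1H (0.393 to 0.598 and 0.517 to 0.580) overlapped too.

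**Figure D4:**
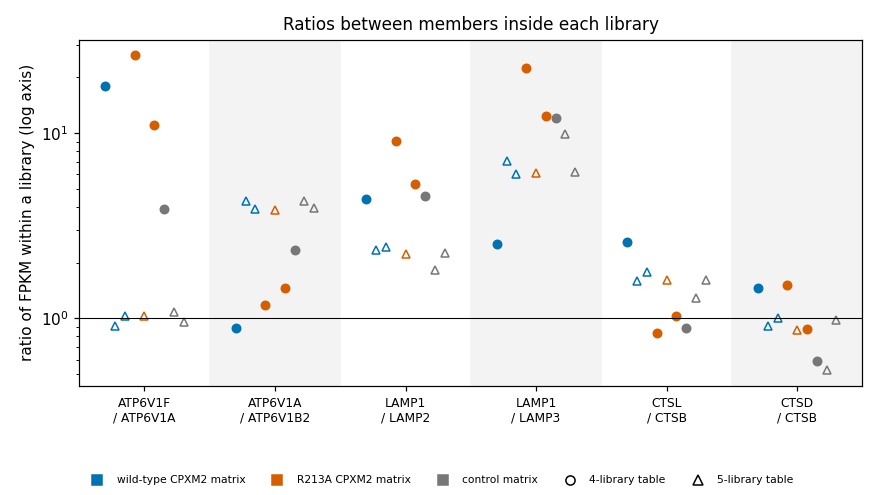
Ratio of FPKM between pairs of members inside each library (log axis), with circles for the 4-library table and triangles for the 5-library table. ATP6V1F over ATP6V1A is 3.88 to 26.3 in circles and 0.908 to 1.09 in triangles, whereas CTSL over CTSB overlaps between tables and is highest in wild type 1.

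Genes with CACGTG in the promoter were set beside those without it. In the 8 tested genes with the core, the median fitted difference was 0.20 with wild type and 0.44 with R213A against control, and in the 13 without it 0.11 and 0.09. Wild type against R213A gave -0.08 with the core and -0.09 without. Over all genes tested the median was -0.03 for wild type and -0.02 for R213A against control, and -0.01 for wild type against R213A. For R213A against control the median was 0.45 with the core in the 4-library table and 0.13 in the other. Without the core it was -0.02 and 0.0063. For wild type these were 0.14 and 0.23 with the core, and -0.06 and 0.03 without. In the 5-library table without control 2, the R213A differences of the 8 genes ran from -0.08 (CTSD) to 0.27 (CTSF). Those of wild type ran from -0.0061 (LAMP1) to 0.18 (ATP6V0E2). Higher with R213A than with control were 6 of the 8 and 6 of the 13 in the 4-library table, and 6 and 7 in the other. These medians cover few genes and carry no test. LAMP1, with the 6 copies shown above, stayed between 53.2 and 60.8 FPKM. Of the MiT/TFE genes themselves, TFE3 was at 50.6 to 70.8 FPKM, MITF at 0.390 to 2.32, TFEB at 0.225 to 0.927 and TFEC at 0 to 0.234 FPKM.

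Other genes of lysosomes came from lists written for this work, and limma called 0 of them in any comparison. With wild type against control, an unadjusted limma p under 0.05 was found for 1 of 28 hydrolases and activators and 1 of 10 sorting genes (SORL1). It was also found for 1 of 16 genes of the MiT/TFE and nutrient platform list (RRAGA) and 2 of 9 regulators of the pump (OXR1 and ROGDI). Among 17 other membrane proteins and 3 cathepsin inhibitors it was found for 0. The share over all genes was 4.49%. With R213A against control such a p was found for 1 of the 16 platform genes (FNIP1) and 1 of the 9 regulators (OXR1), beside 3.05% of all genes. With wild type against R213A it was found for 0 genes of these lists, beside 1.05% of all genes. Over the 28 tested hydrolases and activators, the median difference was 0.06 with wild type and 0.02 with R213A against control. For wild type it was 0.17 in the 4-library table, with 20 of 28 higher, and -0.09 in the 5-library table, with 8 of 28 higher. For R213A it was 0.18 and -0.07, with 19 and 8 higher. Over all genes 46.0% and 47.7% were higher with wild type in the 4- and 5-library tables, and 47.8% and 46.6% with R213A. Once control 2 was left out, the 5-library medians of the hydrolases and activators were -0.00099 for wild type (14 of 28 higher) and -0.028 for R213A (13 of 28). Over 17 other lysosomal membrane proteins the medians were -0.04 and -0.08, with 0.0035 and -0.24 in the 4-library table and 0.07 and 0.06 in the other. The 5-library medians were 0.0042 and 0.0025 without control 2. Over 10 genes of sorting to lysosomes the fitted medians were -0.14 and -0.16, with -0.26 and -0.28 in the 4-library table and -0.07 and -0.06 in the other. Without control 2 the last 2 were 0.0082 and -0.07. Of 3 tested cathepsin inhibitors, CST3, the secreted inhibitor cystatin C, had 59.9, 13.9 and 14.8 FPKM with wild type, 75.3, 14.3 and 50.0 FPKM with R213A and 26.7, 11.8 and 14.1 FPKM with control. As with CTSD, its 3 highest values were the CPXM2 libraries of the 4-library table, and R213A against control gave 0.60 ± 0.28 (limma unadjusted p = 0.0555, adjusted p = 0.69). Over 16 tested genes of the MiT/TFE factors and the nutrient platform the medians were 0.05 and -0.04, and over 9 genes of V-ATPase assembly and regulation 0.10 and -0.01. For R213A that last list had a median of -0.33 in the 4-library table, and of 0.15 in the other, or -0.0019 there without control 2.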

How the data were processed

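RNA sequencing of 9 PaTu 8988t libraries was deposited by the authors as FPKM per gene, in 2 tables of the same 58735 genes. Per the labels' protocols the libraries came from TRIzol RNA and a stranded TruSeq mRNA kit. The submitters' processing notes name hg38 and bcl2fastq, while the aligner, counter, strand setting and annotation are not given in the sources used. Scaled by gene length, 100% of the FPKM values above 0 came out as whole reads, within 0.01 reads. These reads served to give depths and for the alternative with limma-voom.

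Levels were compared as log2(FPKM + 1) with limma 3.58.1 in R 4.3.3 (two-sided moderated test, mean-variance trend), for the 11193 genes that averaged 1 FPKM or more. All 9 libraries entered a single fit with matrix and deposited table as terms, which left 5 residual degrees of freedom. Adjustment was by Benjamini and Hochberg over all genes tested, with a threshold of 0.05. The procedure was tested on simulated data. The members and the lists were chosen with earlier results of these data known. Differences given for a single table are differences of group means of log2(FPKM + 1) there.

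Named members were the 3 of highest mean per role, the 5 of smallest p per comparison, any past the adjusted threshold and any 2-fold apart with the same sign in both tables (0). Untested members are given by range, and further members for their overlap, their share of a subunit or their table. Of other lists, genes among the 2 of smallest p were eligible. MiT/TFE genes and markers were named for their role. Beside this fit, 23 settings were tried: pseudocounts, filters, scalings, no table term, a block for the replicate number, fewer groups or tables, no trend in the spread, limma-voom, and every library left out in turn.

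Promoter sequences came from RefSeq (GRCh38.p14). Of 16 rows with a member's name that were not protein coding and were left out, 14 were processed pseudogenes and 2 antisense genes. For 1 gene of another list the values are not reported here.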

Additional observations from a re-analysis of the deposited data

How the results depend on the processing

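Counts of called genes, called members and member medians gave 207 values under 23 other settings. Of these, 195 stayed within the spread of libraries (medians) or within 1.5 times the count. The sign of a median was not part of this rule. The median of R213A against control was -0.0013 in the 5-library table without control 2. That of wild type against R213A was 0.04 in the 5-library table. Of 340 values for the 5 members of smallest p per comparison, 326 kept direction and side of the threshold. Leaving out each library in turn gave 0 called genes throughout, and member medians of 0.02 to 0.14, 0.02 to 0.18 and -0.10 to 0.04 (wild type over control, R213A over control and wild type over R213A). CTSL in wild type against R213A ran from -0.13 to 0.89 and CTSV from -0.53 to 0.040, both turning sign without wild type 1.

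The 4-library table alone, with 1 residual degree of freedom and lone libraries assumed to vary like the R213A pair, called 775, 184 and 327 genes in the 3 comparisons by limma. It called 2, 0 and 1 members: CTSL (2.14, adjusted p = 0.0242) and LAMP3 (1.87, adjusted p = 0.0059) for wild type against control, and LAMP3 (2.26, adjusted p = 3.83e-05) for wild type against R213A. The R213A median was 0.20 there. Over all settings the adjusted limma p ran from 0.0242 to 1 for CTSL and from 0.0059 to 1 for LAMP3 (wild type against control), and from 3.83e-05 to 1 for LAMP3 against R213A. The 5-library table without control 2 called 14 genes for wild type and 16 for R213A against control, and 0 members. Signs turned there for ATP6V1A (0.023) and LAMP3 (-0.072) with wild type and for CTSD (-0.083), ATP6V0D1 (-0.031) and LAMP2 (0.011) with R213A. In wild type against R213A, LAMP3 (-0.092) and CTSV (0.096) turned in the 5-library table with and without control 2. Without a filter on low values limma called 1 gene for each CPXM2 matrix against control. By limma-voom the median of wild type against R213A was 0.10. The cause of these shifts was not tested.

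With the replicate number as a block that median was -0.13, with 0 genes called in any comparison. The block medians against control were 0.10 for wild type and 0.12 for R213A. Whether the numbers pair the libraries could not be told apart from the tables: deviations from the group means correlated at 0.60, 0.34 and 0.57 for same-numbered wild-type and control libraries, which share a table, and at -0.70 and -0.65 for R213A 3 with wild type 3 and with control 3, which do not. Not every library correlated best with its own number. With 3 libraries per matrix, a member with a median interval could not be told from 0 below about 0.50 on the log2 scale, even without adjustment. Genes near 1 FPKM rest on few reads.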

Other observations

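Autophagosome genes were described beside the lysosomal set. Of 16 tested, 14 had a positive difference with wild-type CPXM2 against control (median 0.16, beside -0.03 over all genes, of which 46.3% were positive). Limma called 0 of them, with 1 at an unadjusted p under 0.05, where 4.49% of all genes had such a p. The 4-library table gave a median of 0.36, and the 5-library table one of 0.12, or 0.046 without control 2, with 11 of 16 positive. GABARAPL1, a member of the ATG8 family that coats autophagosomes, had 8.99, 29.4 and 30.6 FPKM with wild type, 3.23, 26.9 and 4.23 FPKM with R213A and 2.86, 20.9 and 28.1 FPKM with control. The difference for wild type against control was 0.65 ± 0.25 (limma unadjusted p = 0.0265, adjusted p = 0.757). The 4-library table gave 1.37, and the 5-library table gave 0.09 once control 2 was left out. MAP1LC3B, the ATG8 protein used to mark autophagosomes, had 72.1, 55.6 and 56.8 FPKM with wild type, 17.3, 55.3 and 22.1 FPKM with R213A and 17.8, 45.4 and 55.3 FPKM with control. In the 4-library table wild type 1 was thus the high library for both genes, as it was for CTSL and LAMP3. With R213A against control, 7 of the 16 were positive and 9 negative (median -0.04).

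Among regulators of the pump, OXR1, a protein of the TLDc family that acts on V-ATPase assembly, had 2.18, 10.3 and 10.1 FPKM with wild type, 1.80, 9.71 and 2.62 FPKM with R213A and 5.37, 16.5 and 10.0 FPKM with control. Its differences were -0.54 ± 0.23 (limma unadjusted p = 0.0437, adjusted p = 0.757) and -0.65 ± 0.24 (limma unadjusted p = 0.0242, adjusted p = 0.69) against control, and 0.03 and -0.04 in the 5-library table without control 2. ROGDI, a partner of the RAVE-like assembly complex, had 4.28, 1.98 and 2.14 FPKM with wild type, 5.02, 1.82 and 2.94 FPKM with R213A and 1.75, 1.69 and 1.41 FPKM with control. All 6 libraries of the CPXM2 matrices lay above all 3 controls, with differences of 0.49 ± 0.22 (limma unadjusted p = 0.0491, adjusted p = 0.757) and 0.45 ± 0.23 (limma unadjusted p = 0.0782, adjusted p = 0.69). The share of all genes separated in this way was not counted, and ROGDI was named for its small p.

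Across the 31 tested members, log2 differences to control 1 had a Pearson correlation with log2 gene length of -0.25 in wild type 1, -0.35 in R213A 1 and -0.30 in R213A 3, beside -0.18, -0.32 and -0.26 over all 11193 genes. The Spearman correlations over the members were -0.26, -0.30 and -0.31. Differences to control 3 in the 5-library table gave Pearson values of 0.31 in wild type 2, 0.21 in wild type 3 and 0.20 in R213A 2 over the members, beside -0.02, -0.21 and -0.04 over all genes. By Spearman these members gave 0.26, -0.0004 and 0.13, so the sign in wild type 3 depended on the measure. These are descriptions over genes that share the same libraries.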
